A study of Mus musculus with 16 samples.

Results

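The 8 genes described here lie next to each other on mouse chromosome 19: Fgfbp3, Btaf1, Cpeb3, Marchf5 (also named March5), Ide, Kif11, Hhex and Exoc6. They were chosen by their position around Ide and Btaf1, whose values in whole brain RNA had been seen to differ between mice of the same genotype, so that the spread and the shared order of the mice given below are a description and carry no test. All 8 of 8 were found among the 55404 genes of the deposited table, and all 8 passed the filter on low values, which 23244 genes passed. Total RNA of whole brain, depleted of ribosomal RNA, was sequenced from 16 male mice of 5 months, 1 library per mouse. The 8 Tecpr2 ki/ki mice carry the frameshift L1152Yfs on both copies of Tecpr2, an edit made by CRISPR/Cas9 in C57BL/6J zygotes and passed on by founders crossed to C57BL/6J, and the 8 wt/wt mice are their wild-type littermates; neither group received a treatment. The source does not say which mice shared parents, and all ki/ki mice carry the same edited allele. The deposited value of a gene in a mouse is a normalized level on a linear scale, rounded to a whole number, and carries no unit of its own.

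Ide encodes insulin-degrading enzyme, a zinc metalloprotease that cleaves insulin and other small peptides, amyloid beta among them. Btaf1 encodes an ATPase that takes the TATA-binding protein TBP off DNA and so redistributes this general transcription factor between promoters. Fgfbp3 encodes a secreted protein that binds fibroblast growth factors. The other genes of the interval encode a regulator of mRNA polyadenylation and translation in neurons (Cpeb3), a ubiquitin ligase of the mitochondrial outer membrane (Marchf5), the motor protein of the mitotic spindle known as Eg5 (Kif11), a homeobox transcription factor of early development, liver and blood (Hhex) and a subunit of the exocyst, which tethers secretory vesicles to the plasma membrane (Exoc6). As background, differences in copy number that take in Ide and Fgfbp3 have been described among C57BL/6J mice. Genomic DNA of these 16 mice was not analysed here, and its part in the levels below was not tested.

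In GRCm38, an earlier build than the GRCm39 to which the authors aligned their reads, the interval runs over 767 kb, from the 3′ end of Fgfbp3 (ENSMUSG00000047632, chr19:36917550-36919615, minus strand) to the end of Exoc6 (ENSMUSG00000053799, chr19:37550418-37684059, plus strand). Btaf1 (ENSMUSG00000040565, chr19:36926079-37012752, plus strand) starts 6.46 kb from Fgfbp3, and both genes point away from each other. Next come Cpeb3 (ENSMUSG00000039652, chr19:37021291-37208601, minus strand) and Marchf5 (ENSMUSG00000023307, chr19:37207543-37222151, plus strand), which overlap at their starts on opposite strands. The libraries were stranded, but whether the counting used strand is not given in the sources used here. Ide (ENSMUSG00000056999, chr19:37268743-37337852, minus strand) lies 256 kb beyond the end of Btaf1, so that Cpeb3 and Marchf5 stand between the genes that vary together. Kif11 (ENSMUSG00000012443, chr19:37376403-37421859, plus strand) and Hhex (ENSMUSG00000024986, chr19:37434810-37440731, plus strand) follow on the far side of Ide. Fgfbp3 and Btaf1 start back to back, and their promoter sequences, from RefSeq (GRCm38.p6), are shown because these neighbours moved together across mice. Each is the 250 bases before the RefSeq start, on the gene's own strand, at chr19:36919600-36919849 (minus strand) for Fgfbp3 and chr19:36925829-36926078 (plus strand) for Btaf1, and capitals mark matches to the motifs searched:
Fgfbp3: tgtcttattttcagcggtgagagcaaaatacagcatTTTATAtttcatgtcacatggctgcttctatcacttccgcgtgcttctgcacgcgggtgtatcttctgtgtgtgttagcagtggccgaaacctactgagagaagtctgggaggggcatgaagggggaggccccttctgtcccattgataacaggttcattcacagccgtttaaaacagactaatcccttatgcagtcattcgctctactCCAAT
Btaf1: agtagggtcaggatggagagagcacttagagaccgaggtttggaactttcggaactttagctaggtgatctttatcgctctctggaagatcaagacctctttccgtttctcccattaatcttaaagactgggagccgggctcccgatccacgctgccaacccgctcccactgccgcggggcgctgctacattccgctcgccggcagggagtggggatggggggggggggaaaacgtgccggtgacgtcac
The motifs searched, on both strands, were the GC box with the letters GGGCGG, the CCAAT box as its name spells it, the TATA box with the letters TATAAA and the ETS factor motif with the letters CCGGAAG. The Fgfbp3 window held 1 TATA box, on the reverse strand, and 1 CCAAT box at its end, and the Btaf1 window held no match. Among 32851 RefSeq promoters of this length, 32.7% held the GC box, 33.8% the CCAAT box, 12.4% the TATA box and 6.91% the ETS motif. The Btaf1 window had 17 CG pairs and the Fgfbp3 window 8, against a median of 6 over those promoters. The 2 windows therefore shared no motif of this set. Ide also moved with these genes, but its window is not shown, because its RefSeq start lies 3.31 kb inside the span given above. That window held 1 CCAAT box, as did that of Fgfbp3, and 0 CG pairs.

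Each library carried the Tecpr2 level of its label, with values from 274 to 320 in ki/ki and from 928 to 1002 in wt/wt mice. Values of a mouse summed to between 11964284 and 12252324, and the depth factors of the libraries, read from the pattern that scaling and rounding leave in low values, implied 9.23 to 15.4 megareads on genes (median 12.2). The markers of neurons, astrocytes, oligodendrocytes, microglia, endothelium and choroid plexus were all present. Of the markers foreign to brain, Alb was at 0 in all mice, Krt5 reached 1, Ins2 reached 3 and Ckm reached 6, whereas Myh6, a heart myosin, had values from 40 to 64.

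Ide varied 2.22-fold between the lowest and the highest mouse, and its 16 values fell into 3 ranges with nothing between them. In ki/ki mice, Ide had values from 600 to 1111 with a median of 814, and in wt/wt mice from 602 to 1330 with a median of 843. The lowest range, 600 to 673, held 8 mice, 4 of each genotype: ki/ki mice 5, 2, 3 and 1 at 600, 641, 670 and 673, and wt/wt mice 1, 4, 8 and 7 at 602, 608, 618 and 644. The middle range, 955 to 1111, held 5 mice: ki/ki mice 4, 6, 7 and 8 at 955, 1017, 1027 and 1111, and wt/wt mouse 5 at 1042. The top range, 1299 to 1330, held 3 mice, wt/wt mice 2, 6 and 3 at 1299, 1327 and 1330. Both genotypes were thus split between the lowest and the middle range, and the top range held wt/wt mice alone, a difference that was not tested.

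The steps between these ranges were large beside the error of counting. The lower step, from 673 to 955, spanned 282, where counting alone gives an SD of 28.0 at its lower edge. The upper step, from 1111 to 1299, spanned 188 against a counting SD of 37.9, and the largest gap between neighbouring mice elsewhere in the order was 69. The counting SD follows from the depth factors of the libraries and covers counting error only. Since the best cut of any 16 values into 3 runs takes up most of their variation, the share so taken was computed for every tested gene. For Ide it was 98.2%, against a median of 88.2% over the 23244 genes tested, and 0 of 500 genes of like mean value reached it.

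Btaf1 sorted the mice into the same 3 sets without exception. Its values ran from 735 to 1083 in ki/ki mice (median 900) and from 737 to 1222 in wt/wt mice (median 890), a 1.66-fold range. The 8 mice in the lowest range of Ide had Btaf1 values from 735 to 850, the 5 mice of its middle range from 950 to 1083, and the 3 mice of its top range from 1201 to 1222. The steps of Btaf1 spanned 100 and 118, against counting SDs of 26.8 and 32.3, and the largest other gap was 61. Within the ranges the order of the mice differed between Ide and Btaf1. In the lowest range, for example, ki/ki mouse 5 was lowest of the 8 for Ide at 600 and highest for Btaf1 at 850. The 3 runs took up 93.2% of the variation of Btaf1, and 31 of 500 genes of like mean value had a share at least as large, so that the separation of levels was less sharp than in Ide.

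Fgfbp3, the gene back to back with Btaf1, was measured at a far lower level and followed the same order with some overlap. Its values ran from 31 to 55 in ki/ki mice (median 43) and from 27 to 72 in wt/wt mice (median 50.5). The 3 mice in the top range of Ide were also the 3 highest for Fgfbp3, at 66 to 72, above the 41 to 55 of the middle mice and the 27 to 46 of the lowest mice. The latter ranges overlapped, since ki/ki mouse 4 had an Fgfbp3 value of 41 and wt/wt mouse 4, of the lowest Ide range, had 46. Of the 8 lowest mice for Fgfbp3, 7 were among the 8 lowest for Ide, and 4 of the next 5 were shared. The widest gap between neighbouring mice of Fgfbp3 was 11, from 55 to 66, at the mice where Ide and Btaf1 made their upper step, beside a counting SD of 7.08 at its lower edge. The 3 runs that fit Fgfbp3 best were cut elsewhere, at gaps of 5 and 7 with counting SDs of 5.66 and 6.47, and at the lower step of Ide the mice overlapped.

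**Figure D1:**
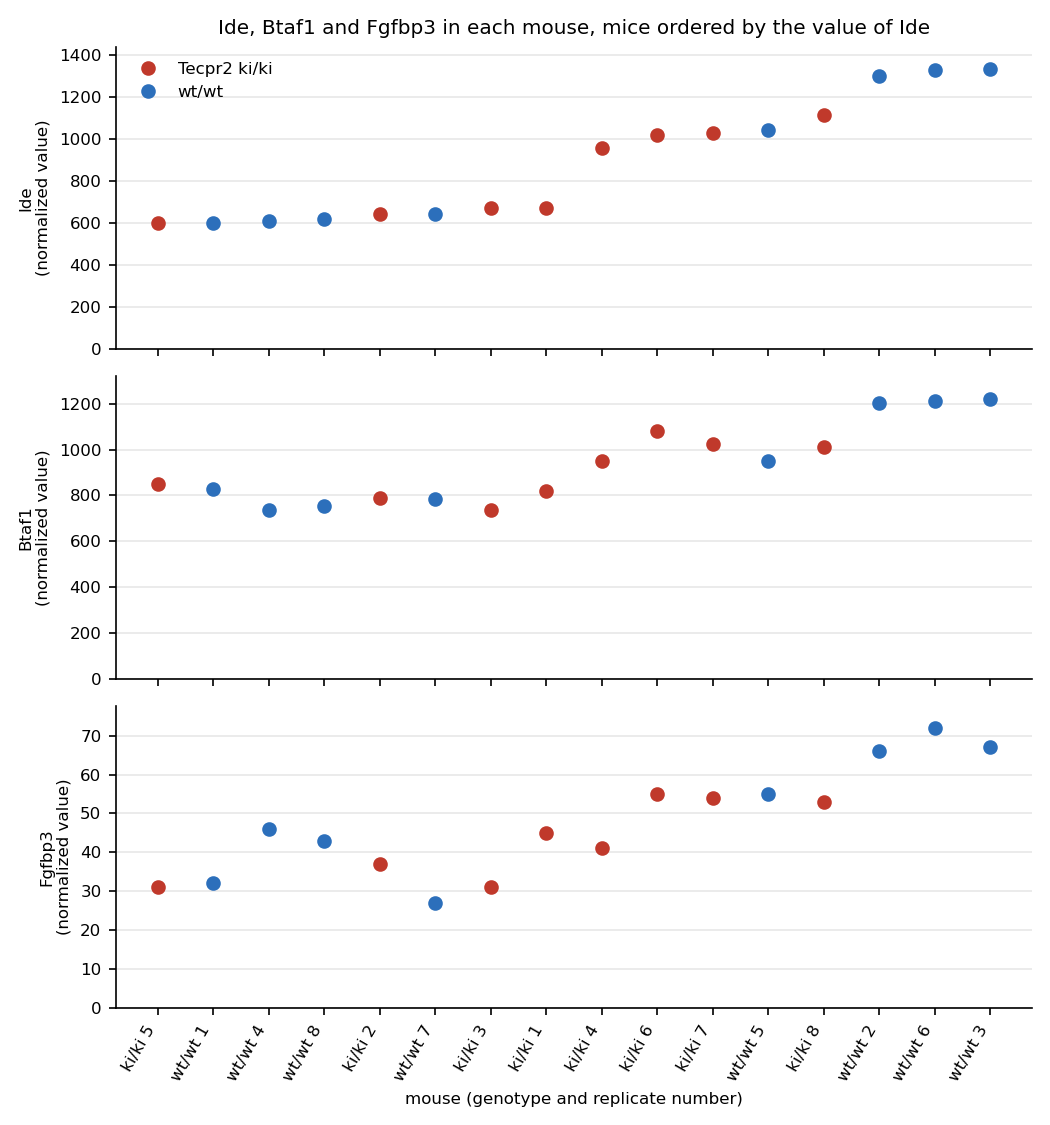
Normalized value (linear, from 0) of Ide, Btaf1 and Fgfbp3 in each of the 16 mice, ordered along the x axis by the value of Ide, with ki/ki mice in red and wt/wt mice in blue and 1 point per mouse. Ide rises in steps from 600–673 to 955–1111 and 1299–1330, Btaf1 steps up at the same mice, and Fgfbp3 follows with overlap between its lower mice.

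Cpeb3 and Marchf5, which lie between Btaf1 and Ide, did not sort the mice into the 3 ranges of Ide. Cpeb3 had values from 1294 to 1406 in ki/ki mice (median 1368) and from 1340 to 1496 in wt/wt mice (median 1376), a 1.16-fold range. The mice of the lowest, middle and top range of Ide had Cpeb3 values from 1294 to 1496, from 1335 to 1412 and from 1340 to 1381, which overlapped throughout. Marchf5 had values from 407 to 484 in ki/ki mice (median 450.5) and from 418 to 537 in wt/wt mice (median 483). In the mice of the lowest, middle and top range of Ide, Marchf5 was at 418 to 513, 407 to 469 and 487 to 537. The top mice thus lay above the middle mice but overlapped the lowest. Of the 3 highest mice for Marchf5, 2 were in the top range of Ide, but only 1 of the next 5 and 4 of the 8 lowest were shared. Marchf5 is uncertain as a single gene, because 15.9% of the 31-base words of its transcripts also occur in other genes, mainly the pseudogene Gm8641. For Ide and Btaf1 this share was under 1% (0.718% and 0.758%), and for Fgfbp3 it was 0%.

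On the far side of Ide, the values of the members overlapped between the mice of its 3 ranges. Kif11 had values from 8 to 27 in ki/ki mice (median 18.5) and from 15 to 25 in wt/wt mice (median 19.5). In the mice of the lowest, middle and top range of Ide, Kif11 was at 16 to 27, 8 to 23 and 15 to 25. Kif11 shares 6.62% of its 31-base words with other genes. Hhex had values from 14 to 26 in ki/ki mice (median 22) and from 14 to 22 in wt/wt mice (median 17.5). In the mice of the 3 Ide ranges it was at 14 to 23, 18 to 26 and 16 to 22. Of the 8 lowest mice for Hhex, with mice tied at the cut, 6 were among the 8 lowest for Ide. Of the next 5, 1 was shared, and no mouse of the top range was among its 3 highest. At values near 20 counting takes up most of the spread, with a counting SD of 0.34 for Kif11 and 0.33 for Hhex on the log2 scale. The steps of Btaf1, 1.12-fold and 1.11-fold, lie within this error of a single mouse. Whether means over the mice of a range would show such a step was not tested. Exoc6 had values from 389 to 454 in ki/ki mice (median 428) and from 433 to 522 in wt/wt mice (median 453), and the mice of the 3 Ide ranges overlapped for this gene, at 404 to 522, 389 to 456 and 433 to 462.

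**Figure D2:**
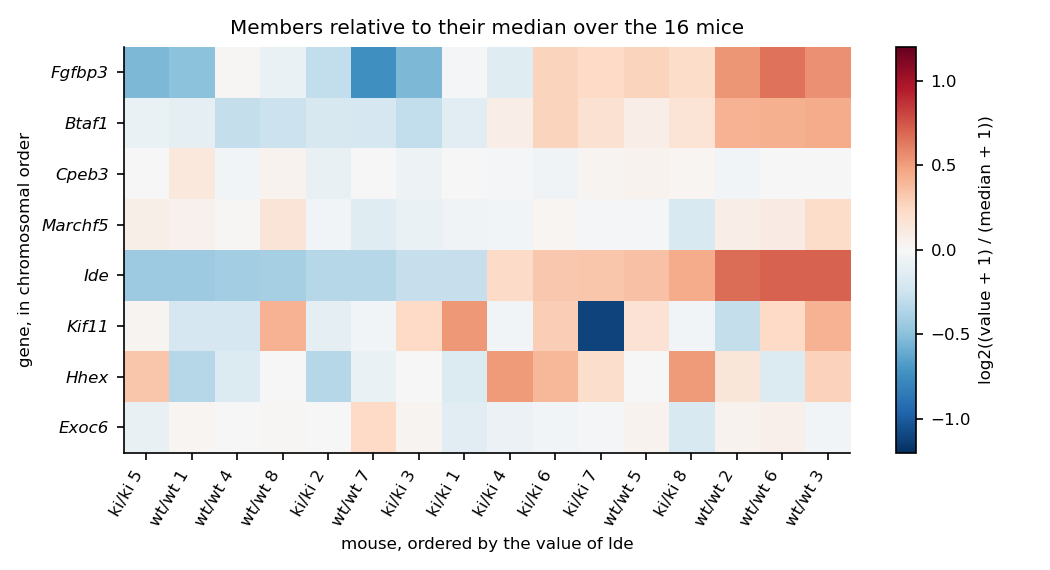
Each of the 8 members (rows, in chromosomal order) in each of the 16 mice (columns, ordered by the value of Ide), coloured by log2 of (value + 1) over (median + 1), blue below and red above the median of that gene. Ide, Btaf1 and Fgfbp3 turn from blue to red along the order, while Cpeb3, Marchf5 and Exoc6 stay pale and the low genes Kif11 and Hhex vary with overlap between the mice of the Ide ranges.

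Levels of different genes were compared roughly per kb of exon, with all annotated exons of a gene joined as its length. The order of mean levels was Marchf5 (193), Cpeb3 (185), Exoc6 (125), Ide (118), Btaf1 (91.1), Fgfbp3 (26.6), Hhex (3.82) and Kif11 (2.60). For Hhex this length, 5056 bases, covers most of its span of 5.92 kb, so that its level per kb may be understated. Neighbours in this order overlapped between mice, except that Exoc6 (110 to 147 per kb) stayed below Cpeb3 (175 to 202 per kb) in all mice, Fgfbp3 (15.2 to 40.6 per kb) below Btaf1 (71.6 to 119 per kb), and Hhex (2.77 to 5.14 per kb) below Fgfbp3. Ide, at 79.9 to 177 per kb, reached from the range of Btaf1 up to that of Cpeb3. The ratio of the Ide value to the Btaf1 value of the same mouse, with no length taken into account, lay between 0.706 and 1.10, and its ratio to the Fgfbp3 value between 13.2 and 23.9. Against Cpeb3, the flat gene between them, the ratio of Ide ran from 0.402 to 0.970. Relative to Btaf1 the range of Ide was therefore narrower (1.56-fold) than relative to Cpeb3 (2.41-fold), though not closed.

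The spread between mice, as the SD of log2(value + 1) with genotype means removed, was 0.47 for Ide, 0.43 for Fgfbp3 and 0.27 for Btaf1. For Ide this was 9.20 times the SD that counting alone gives, for Btaf1 5.62 times and for Fgfbp3 1.96 times, against a median of 1.11 over all genes tested. Each member was set beside the 500 genes of most similar mean value: 100% of these had a smaller SD than Ide, 99.6% than Btaf1 and 99% than Fgfbp3. The 5 other members spread like genes of their level, with SDs above those of 79% (Marchf5), 67.6% (Kif11), 44.8% (Exoc6), 30.8% (Cpeb3) and 8.8% (Hhex) of such genes. Their ratios to the counting SD lay between 0.787 for Hhex and 1.40 for Marchf5. Ide spread in both genotypes, with an SD of 0.37 in ki/ki and 0.55 in wt/wt mice. Of the 8542 genes with a mean value over 200, 2 had a larger SD than Ide, the unnamed models Gm21887 on chromosome X (99 to 726) and Gm47283 on chromosome Y (278 to 2197), and 19 had a larger SD than Btaf1. Among the same genes, a share of variation between 3 runs at least as large as that of Ide was seen in 3 others: Tecpr2, which was edited in this line, and Srp54a and Srp54b on chromosome 12, names added after their values had been seen.

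**Figure D3:**
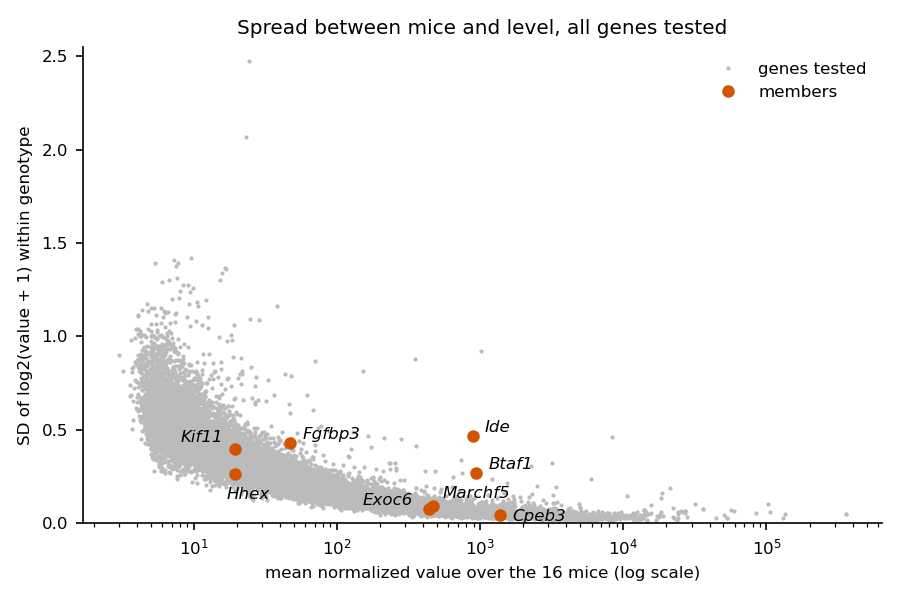
SD of log2(value + 1) between mice within genotype (y axis) against the mean normalized value over 16 mice (x axis, log scale), 1 grey point per tested gene and orange points for the 8 members. Ide at 0.47 and Btaf1 at 0.27 stand clear of genes of their level and Fgfbp3 at 0.43 lies at the upper edge, while the other members lie inside the cloud.

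Over the 16 mice, the rank correlation with Ide (Spearman's rho) was 0.82 for Fgfbp3 and 0.79 for Btaf1. These mice share the library of both genes compared, and the values describe the members chosen for this pattern. Within ki/ki mice rho was 0.84 for Fgfbp3 and 0.74 for Btaf1, and within wt/wt mice 0.81 and 0.86, 8 mice each. Without wt/wt mice 3 and 6, the mice farthest from the median of Ide, rho was 0.73 and 0.69. The other members had rho from -0.03 (Cpeb3) to 0.37 (Hhex), inside the range of -0.41 to 0.41 that holds the middle of all tested genes from the 5th to the 95th percentile. For Hhex, rho was higher within each genotype, at 0.56 in ki/ki and 0.66 in wt/wt mice, and 0.52 without wt/wt mice 3 and 6. Of all genes tested, 3 had a larger rho to Ide than Fgfbp3 and 5 than Btaf1. Among 13760 genes with a mean value of at least 50, the genes most like Ide outside the interval were Slc25a16 (rho 0.85), Ttf1 (0.82), Erp29 (0.78), AC121821.1 (0.77) and Zfp583 (0.76). These followed the rank of the mice over far smaller ranges, from 288 to 370 for Slc25a16, 135 to 174 for Ttf1, 391 to 450 for Erp29, 41 to 62 for AC121821.1 and 79 to 110 for Zfp583. Ide itself had rho of -0.11 to the summed value of a library, 0.10 to the implied reads and -0.02 to the number of genes above 0, and between -0.25 and 0.27 to the scores of the marker lists, the lowest for oligodendrocytes and the highest for choroid plexus. In bulk RNA, fewer cells of a type and less RNA per cell cannot be told apart.

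To see how far along the chromosome the pattern reached, all annotated genes from 1 Mb before Fgfbp3 to 1 Mb after Exoc6 were examined. Of 53 such genes in the table, 30 were tested, 22 of them not members. None of the 22 had a rho to Ide of 0.8 or more (0 of 22, from -0.43 to 0.32), and none had an SD above that of 95% of genes of like mean (0 of 22, highest 87.6%). Both limits say little of the 9 of 22 with mean values under 20, where counting error takes up most of the spread. The limit of 0.8 lies just above the 0.79 of Btaf1. Over all 22, the ratio of the SD to the counting SD lay between 0.732 and 1.50, with a median of 1.00. Tnks2, a tankyrase gene and the tested gene next to Fgfbp3 on its outer side, had values from 1953 to 2144. Within the span of Ide lies the ribosomal protein pseudogene Rpl10-ps6, which had values from 189 to 258 and a rho to Ide of 0.32. It is uncertain as a single gene, because 95.8% of its 31-base words occur in other genes, mainly Rpl10. Of the genes tested in this stretch, the raised spread was thus seen in Fgfbp3, Btaf1 and Ide, with Cpeb3 and Marchf5 between them at the spread of their level.

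**Figure D4:**
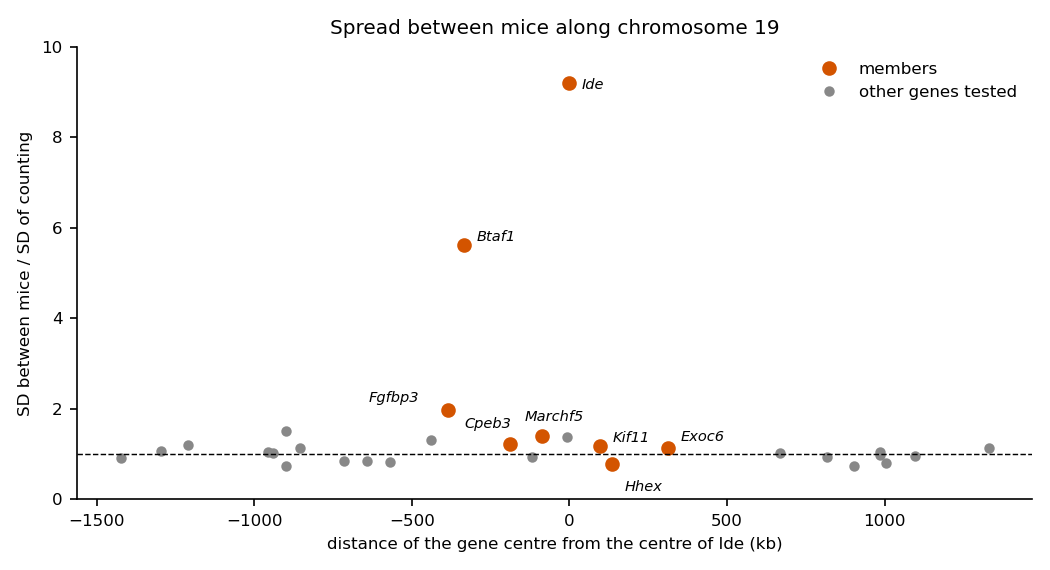
SD between mice divided by the SD of counting (y axis, dashed line at 1) for the 30 tested genes of the interval and its flanks, against the distance of the gene's centre from that of Ide in kb (x axis), members in orange and other genes in grey. Ide (9.20), Btaf1 (5.62) and Fgfbp3 (1.96) stand above the other genes, all of which lie between 0.732 and 1.50.

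Between genotypes, 0 of 8 members passed an adjusted p of 0.1 and 0 of 8 an unadjusted p of 0.01 in limma's test, thresholds passed by 0.133% and 1.56% of the 23244 genes tested (31 and 362 genes). Independence of genotype belonged to the description by which these genes were selected, so their missing calls support nothing further. The mean Ide value was 837 ± 209 (SD, n = 8) for ki/ki mice, against 934 ± 350 (SD, n = 8) for wt/wt mice. On the log2 scale ki/ki minus wt/wt was -0.11 for Ide (SE 0.232, adjusted p = 0.975 by limma and Benjamini-Hochberg), with a 95% confidence interval from -0.60 to 0.39, so that a difference of up to 1.31-fold upwards or down to 0.658-fold was within the error. For Btaf1 the means were 908 ± 126 (SD, n = 8) and 961 ± 218 (SD, n = 8), which differed by -0.06 on the log2 scale (SE 0.134, limma adjusted p = 0.975, interval -0.35 to 0.22). For Fgfbp3 they were 43.4 ± 9.97 (SD, n = 8) and 51 ± 16.8 (SD, n = 8), a difference of -0.19 on the log2 scale (SE 0.194, limma adjusted p = 0.932, interval -0.60 to 0.22). The exact two-sided permutation p, over all splits of the mice, was 0.636 for Ide, 0.646 for Btaf1 and 0.385 for Fgfbp3, where the smallest possible p is 0.000155. The wide intervals of these 3 genes go with their spread within each genotype.

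The mean Exoc6 value was 425 ± 21.7 (SD, n = 8) for ki/ki mice, against 459 ± 27.2 (SD, n = 8) for wt/wt mice, a difference of -0.11 on the log2 scale (SE 0.0412, interval -0.19 to -0.03). Its unadjusted p was 0.0109 and its adjusted p 0.641 (limma, Benjamini-Hochberg), and the exact two-sided permutation p was 0.00777, not adjusted for the number of genes. Without wt/wt mouse 7, whose Exoc6 value of 522 stood apart, the log2 fold change was -0.08. For Marchf5 the means were 451 ± 22.6 (SD, n = 8) and 481 ± 36.5 (SD, n = 8), a difference of -0.09 (SE 0.0422, limma adjusted p = 0.807). Cpeb3 differed by -0.03 (limma adjusted p = 0.903), Kif11 by -0.09 (limma adjusted p = 0.975) and Hhex by 0.22 (limma adjusted p = 0.902) on the log2 scale. The standard error was 0.0261 for Cpeb3, but 0.184 for Kif11 and 0.170 for Hhex, whose intervals ran from -0.46 to 0.28 and from -0.12 to 0.56. Of the 8 members, 7 had a lower and 1 a higher mean in ki/ki mice, with a median log2 fold change of -0.09 beside 0.00 over all genes tested; none of these differences passed the adjusted threshold.

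**Figure D5:**
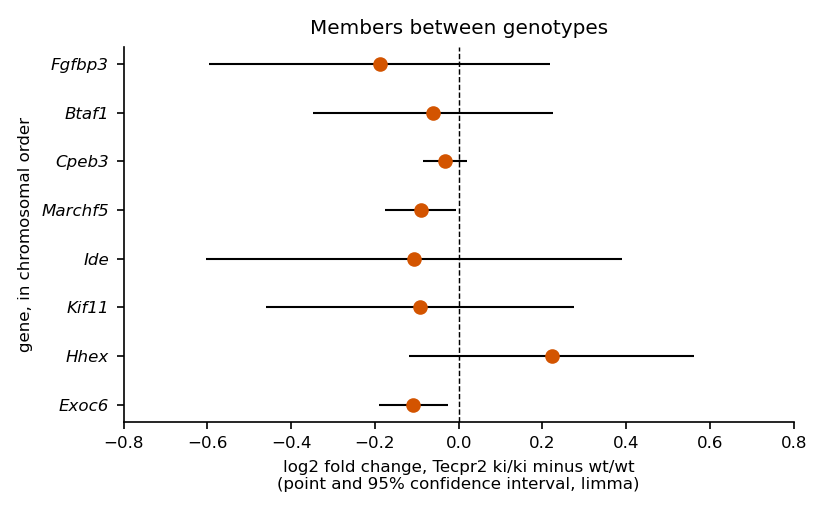
Log2 fold change of each member, ki/ki minus wt/wt, on the log2(value + 1) scale (x axis), with points for the limma estimate and lines for its 95% confidence interval, genes in chromosomal order. Ide, Btaf1 and Fgfbp3 have wide intervals that include 0, and those of Exoc6 and Marchf5 end just below 0 without passing the adjusted threshold.

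Genes with functions near those of the members were examined from 7 lists of 77 genes, all 77 of which were found and tested. None of the 77 passed the adjusted or the unadjusted threshold between genotypes in limma's test (0 of 77 in either direction), which is near the 0.133% and 1.56% of all tested genes that did. Around Ide, the list of 18 genes of insulin and amyloid peptide cleavage and insulin signalling had 10 genes higher and 8 lower in ki/ki mice, and the median of their log2 fold changes was 0.00. Its most abundant genes were App, the amyloid precursor gene, with values from 13370 to 14291, and the receptor gene Igf1r, with values from 1765 to 2018. The 20 genes of TBP, the target of BTAF1, and of other general transcription factors and their regulators had a median of 0.01. Their most abundant genes were Taf1 (1120 to 1234) and Gtf2a1 (1096 to 1238). The 15 fibroblast growth factor genes, with their binding protein and receptor genes, had a median of 0.00, led in abundance by Fgf12 (1930 to 2136) and the receptor gene Fgfr1 (950 to 1114).

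The lists for the other members had equally small medians, apart from the low mitotic genes. They were 0.00 for 3 genes of cytoplasmic polyadenylation, among them Cpeb4 (2479 to 2798), -0.01 for 8 genes of mitochondrial dynamics, among them Dnm1l (2386 to 2620) and Mfn2 (2055 to 2297), and -0.02 for 8 exocyst genes, among them Exoc6b (1483 to 1642) and Exoc4 (1091 to 1239). The 5 genes of mitotic kinesins and the spindle, among them Kif15 (30 to 48) and Kif20a (15 to 41), had a median of -0.09. Across mice, rho to Ide over the 77 genes lay between -0.75 for Taf8 (141 to 181) and 0.50 for Taf11 (185 to 231), both subunits of the general factor TFIID, and no gene of the lists reached the 0.79 of Btaf1. The highest SD between mice among the 18 genes of the insulin and amyloid list was 0.17 on the log2 scale, beside 0.47 for Ide. It was 0.17 for mitochondrial dynamics, 0.08 for cytoplasmic polyadenylation and 0.07 for the exocyst. The fibroblast growth factor, mitotic and TBP lists reached 0.65, 0.52 and 0.36, each in a gene whose values did not exceed 36. In these lists 3, 4 and 1 genes had an SD above the 0.27 of Btaf1.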

How the data were processed

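Stranded total RNA libraries were made from whole brains of 16 mice, 8 of each genotype. According to the paper, the authors trimmed reads with trim_galore 0.6.10 and cutadapt 3.4, aligned them to GRCm39 (release 109) with STAR 2.7.10b, counted them with summarizeOverlaps and used DESeq2 1.40.2. The authors deposited a score for each gene in each mouse, on a linear scale and as whole numbers, by a normalization not given in the sources used here. Rounding limits the precision of low genes, and intervals cover the spread between mice.

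Groups and replicate numbers came from the sample labels, sex from the paper. Symbols, positions and transcripts came from GENCODE M21 (GRCm38), which differs from the authors' build, and promoters from RefSeq. Genes with a sum above 16 and values above 5 in 4 or more mice of a genotype were tested. The test was limma 3.58.1 in R 4.3.3 (trend, robust) on log2(value + 1), with Benjamini-Hochberg adjustment. That scale understates changes of low genes. Single genes were also tested by exact permutation over all splits of the mice, computed with numpy 2.4.6. On simulated data with 200 genes changed by a log2 fold change of 0.5, limma recovered 200 and called 16 of the unchanged genes among 23244. The changed genes all had mean values over 200, and every gene was drawn with the same low dispersion. This recovery therefore does not apply to the widely spread Ide, Btaf1 and Fgfbp3, nor to the low Kif11 and Hhex. Counting SDs use depth factors estimated per library. The members and lists were chosen with earlier results of these data known. Named are the members, Tecpr2, the 5 genes most like Ide, neighbours with a rho of 0.8 or a high spread, and per list genes past a threshold and the 1 or 2 most abundant. Exceptions, chosen after their values were seen, are Taf8, Taf11, Tnks2, Rpl10-ps6 and the genes more variable than Ide or as sharply split. Alternatives were the pseudocount, filter, scaling, variance estimate, a replicate block and leaving out mice.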

Additional observations from a re-analysis of the deposited data

Results flagged for a closer look

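In 16 groups of 8 mice (8 members, 2 genotypes), 2 single mice lay far from the others of their genotype, by the ratio of the gap to the nearest mouse to the whole range, set against Dixon's 95% critical value. Chance flags about 1 in 20 groups. The Cpeb3 value of wt/wt mouse 1 was 1496, with a ratio of 0.538. The Exoc6 value of wt/wt mouse 7 was 522, with a ratio of 0.674. Neither mouse was far from its group in Ide or Btaf1, where each lay among 4 wt/wt mice of the lowest range.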

How the results depend on the processing

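Of the values recomputed under alternatives, 526 were counted as the same, 10 as moved and 1 as reversed. The 526 include rank correlations near 0 that changed sign, as for Cpeb3 with Ide (-0.03, and 0.15 without wt/wt mouse 1). They also include the Exoc6 and Marchf5 results below whose unadjusted p fell under 0.01, and the 46 genes with a replicate block. No member passed the adjusted threshold in any alternative. The number of genes at an adjusted p under 0.1 was 31, 20 without a filter on low values, 16 without trend and robust estimates, and 25 to 40 with each mouse left out. With a replicate block, 46 genes passed the adjusted and 419 the unadjusted threshold, and the log2 fold change of Ide was -0.11 (standard error 0.274). Whether the replicate numbers pair the mice was not tested. Over 8 same-numbered pairs the correlation of deviations lay between -0.04 and 0.15, with a median of 0.02. Of the 16 mice, 5 correlated best with their own number. The log2 fold change of Kif11 was 0.064 without Tecpr2 ki/ki replicate 7, whose value was 8, within a leave-one-out range of -0.17 to 0.064. That of Ide ran from -0.18 to -0.02, of Btaf1 from -0.11 to -0.01 (wt/wt mouse 4 and wt/wt mouse 3 left out), of Fgfbp3 from -0.31 (without wt/wt mouse 7, limma unadjusted p = 0.0541) to -0.11 (without wt/wt mouse 6), and the SD of Ide between 0.45 and 0.48. The unadjusted p of Exoc6 fell under 0.01 with the replicate block (0.00980) and without any of ki/ki mice 2 (0.00776), 3 (0.00536) and 7 (0.00953) and wt/wt mice 3 (0.00650) and 4 (0.00885), and was 0.0526 without wt/wt mouse 7, while that of Marchf5 was 0.00560 without wt/wt mouse 7 (limma). The SD of Hhex was 0.19 with a pseudocount of 8. The rank correlation with Ide in ki/ki mice alone was 0.52 for Cpeb3, -0.33 for Marchf5, -0.20 for Kif11 and -0.31 for Exoc6; in wt/wt mice alone it was -0.33 for Cpeb3 and 0.66 for Hhex, and without the 2 mice farthest from the median of Ide -0.28 for Marchf5. The cause was not tested. Depth limits Fgfbp3, Kif11 and Hhex, whose values are low; the widest gap of Fgfbp3, 11, compares with a counting SD of 7.08.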

Other observations

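Of the 22 neighbouring genes that are not members, 1 had an unadjusted p under 0.01 between genotypes: Hectd2, with a log2 fold change of -0.14 (limma, unadjusted p = 0.00454, adjusted p = 0.513). Of all genes tested, 1.56% passed this threshold. Srp54a had values from 2126 to 3670 and Srp54b from 1539 to 2657 over the 16 mice, with 98.5% of the variation of each between 3 runs of mice.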
